A study of Mus musculus with 6 samples.

Results

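Nf1 and 9 genes that restrain or report signalling from RAS to ERK were followed in the RNA of mouse optic nerves after optic nerve crush (ON-CR). The 10 genes are Nf1, Spred1, Spred2, Spry1, Spry2, Spry4, Dusp4, Dusp6, Etv4 and Etv5. They were taken by symbol, and all 10 are among the 25755 genes of the table. Of the 10, 0 passed an adjusted p at or under 0.05 by limma, where 2.1% of all genes did, and Nf1 RNA itself was at 411 ± 29.3 after ON-CR against 385 ± 55.1 after sham surgery (normalized values, SD, n = 3 each). For 8 of the 10, the 95% interval of the fold change lay between a halving and a doubling. Around them, cyclin D1 (Ccnd1), Hbegf and Egr1 rose, while Fgf1, Etv1 and the genes Omg and Evi2a, which sit inside Nf1 introns, fell. With each mouse left out in turn, Ccnd1 kept an adjusted p at or under 0.05 by limma in 6 of 6 fits. The others did so in 2 or 3 of 6. The sex of the mice and the surgery could not be told apart for any gene.

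Both groups were 3-month-old Nf1flox/flox; hGFAP-Cre mice, written NF1flox/flox;hGFAP-Cre in the labels, so sham and crushed nerves share the same Nf1 alleles. In this model both copies of Nf1 are floxed, and Cre recombinase expressed from a human GFAP promoter removes Nf1 function in neuroglial progenitors and the cells they give rise to, so cells of other origins in the nerve, such as microglia, are not the target of the deletion. Mice with intact Nf1 were not analysed here. The 3 sham mice (mice 1, 2 and 3) and the 3 ON-CR mice (mice 4, 5 and 6) had surgery at 6 weeks of age. Whole nerves were sequenced, so fewer cells of a type and less RNA per cell cannot be told apart.

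Neurofibromin, the Nf1 protein, is a GTPase-activating protein that returns RAS from its active, GTP-bound form to its inactive form. SPRED1 and SPRED2 bind neurofibromin and bring it to the membrane. When RAS is active, RAF, MEK and ERK are phosphorylated in turn, and ERK then raises transcription of its own brakes. These include the Sprouty genes (Spry1, Spry2 and Spry4), which act between growth factor receptors and RAF, and the phosphatases encoded by Dusp4 and Dusp6, which remove phosphate from ERK. Etv4 and Etv5 encode transcription factors of the PEA3 group of the ETS family, whose RNA is widely read as an output of the same pathway. In glia this pathway acts downstream of the PDGF, FGF and EGF receptors, and loss of NF1 raises its activity. In the paper, mice of this genotype formed optic glioma after ON-CR, compared with sham controls. The paper reports that this also depended on Ccl5 from tumor-associated monocytes.

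Libraries held 17414589 to 23620019 estimated reads on genes, and each ON-CR library was shallower than each sham library. Oligodendrocyte and astrocyte markers were abundant in all 6 libraries, as an optic nerve should show. The oligodendrocyte markers (Mbp, Mog, Mag, Mobp and Cnp) fell in 5 of 5 genes at an adjusted p at or under 0.05 by limma, against 1.13% of all genes. Their summed value was 989056 to 1523902 with sham surgery and 471002 to 528564 with ON-CR. Of the 6 microglia and macrophage markers, 2 rose (Aif1 and C1qa) at an adjusted p at or under 0.05 by limma, against 0.971% of all genes. By mean log2 value 4 of the 6 were higher, and the lowest log2 fold change was -0.35. The 6 summed to 10836 to 13537 with sham surgery and 12614 to 19744 with ON-CR. ON-CR mouse 5 stood apart by its neuron markers, with a sum of 7591 against 1006 to 3255 in the other mice, and ON-CR mouse 6 by its B and plasma cell markers, with 97531 against 369 to 2390. Airway epithelium markers summed to 5393 to 7892 in sham mouse 3 and ON-CR mice 5 and 6, against 82 to 128 in the other mice. The groups also differed in Xist, at 2.14 to 30.9 with sham surgery and 2708 to 6357 with ON-CR, and in the Y-linked Ddx3y, at 1291 to 1645 with sham surgery and 976, 4.19 and 0 with ON-CR, so the library of mouse 4 held both, and the sex of the mice and the surgery cannot be told apart for any gene here. The study's methods put more than 1 mouse into each sample for its PCR assays, and whether the sequenced libraries were pooled in the same way is not given, so a numbered mouse here means a library.

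The start of Nf1 is shown because this gene is the one inactivated in the model, and that of Spry2 because it had the most RNA per length of the 10. That of Dusp6 is shown because it was the only one of the 10 whose groups did not overlap, as was so for 21.6% of all genes. Sequences are from RefSeq on GRCm38.p6, and each ends before the first base that either RefSeq or GENCODE assigns to the gene. Capitals mark a 7-base ETS motif, CCGGAAG, here read as its reverse complement.
Nf1, chr11:79339642-79339692, plus strand: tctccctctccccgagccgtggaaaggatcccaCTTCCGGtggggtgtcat
Spry2, chr14:105896820-105897069, minus strand: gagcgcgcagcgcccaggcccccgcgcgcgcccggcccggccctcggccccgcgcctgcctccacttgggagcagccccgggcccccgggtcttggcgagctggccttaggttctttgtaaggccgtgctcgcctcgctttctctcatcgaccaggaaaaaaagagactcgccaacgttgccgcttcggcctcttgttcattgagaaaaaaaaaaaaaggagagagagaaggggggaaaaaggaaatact
Dusp6, chr10:99262981-99263230, plus strand: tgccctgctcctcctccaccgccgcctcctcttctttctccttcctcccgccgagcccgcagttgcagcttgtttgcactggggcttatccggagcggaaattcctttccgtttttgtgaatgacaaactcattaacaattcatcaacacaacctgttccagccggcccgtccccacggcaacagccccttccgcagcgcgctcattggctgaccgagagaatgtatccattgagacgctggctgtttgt

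RefSeq promoter windows, from 250 bases before to 50 bases after a start, were found for 7 of the 10 genes, without Spry4, Dusp4 and Etv4. Both strands were searched for 3 motifs of 7 bases. The ETS motif was found in Nf1 alone and occurs in 8.86% of 32851 windows. The cyclic AMP response element TGACGTC was found in Spred2 alone and occurs in 3.21%. The AP-1 motif TGACTCA was found in 0 of the 7 and occurs in 5.2%.

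The members lay at very different levels. Per kb of annotated exon, Spry2 had a mean normalized value of 1351 ± 240.2 over the 6 libraries (SD), and every library placed it above all other members. Dusp6 followed at 334 ± 36.5 per kb, Etv5 at 284 ± 43.3 per kb and Spred1 at 233 ± 23.3 per kb. Neighbours among these overlapped in range, although Etv5 was above Spred1 in 6 of 6 libraries. A lower set followed without overlap, made up of Etv4 at 77.9 per kb, Spry4 at 59.2, Spred2 at 47.4, Spry1 at 37.0 and Nf1 at 25.1, in which each gene overlapped the next. Dusp4 was lowest at 7.07 ± 4.97 per kb, under the range of Nf1. Among 10 genes for RAS GTPase-activating proteins, Nf1 ranked 7 by mean level per kb over the 6 libraries and in sham libraries. It ranked 8 in ON-CR libraries, where the mean of Rasal1 was above it. In ON-CR mice 4, 5 and 6 Rasal1 was at 26.5, 35.3 and 22.3 per kb and Nf1 at 26.2, 27.6 and 24.0. Rasa3, which encodes a GTPase-activating protein of RAS and RAP, was the most abundant of them at 254 ± 32.7 per kb (SD over 6 libraries).

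**Figure D1:**
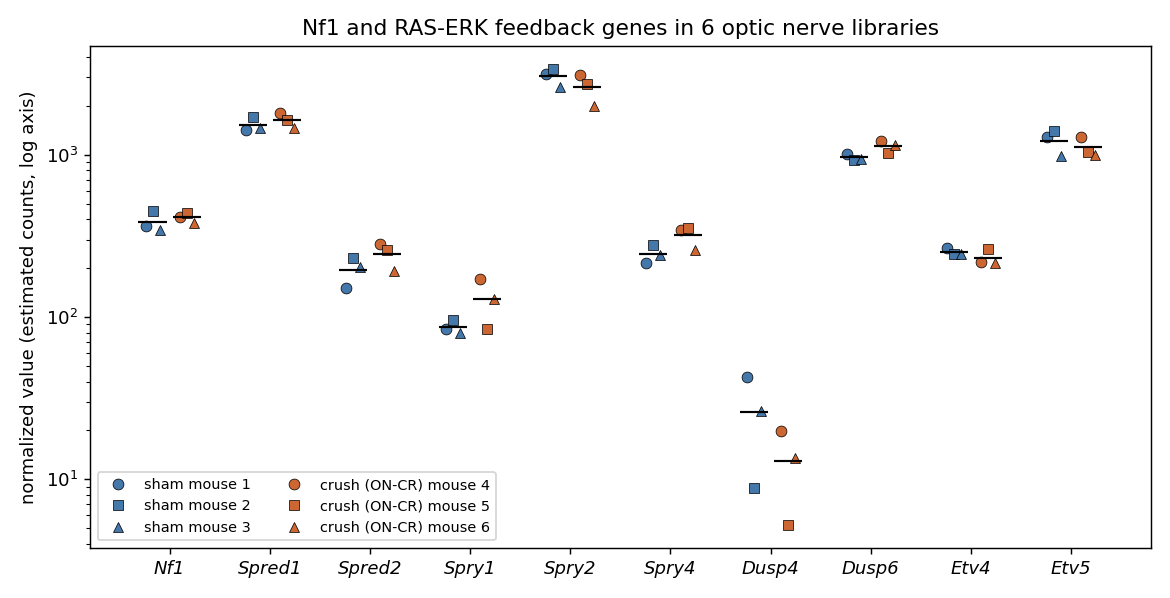
Normalized values (estimated counts, log axis) of the 10 genes in each of 3 sham (blue) and 3 ON-CR mice (orange); each symbol is a mouse and bars are group means. The groups overlap for every gene except Dusp6, where 21.6% of all genes do not overlap. Dusp4 spreads most, from 5.24 to 42.4.

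Whether crush altered the RNA of the gene deleted in this model was examined first. Nf1 (ENSMUSG00000020716.16, chromosome 11 of GRCm38 from 79339693 to 79581612, plus strand) was at normalized values of 364, 447 and 343 after sham surgery (mice 1, 2 and 3) and 416, 438 and 380 after crush (mice 4, 5 and 6; the same order is kept for every gene). All 3 ON-CR values lay within the sham range, and the highest and lowest values were both from sham mice. The log2 fold change was 0.10 (SE, the standard error, 0.15, limma adjusted p = 0.798), or 1.07-fold with a 95% interval of 0.852 to 1.35. Values are per gene and cover all exons, so recombined and intact alleles were not distinguished. With all mice sharing the genotype, they give no check of the deletion. The 5 genes whose pattern over the 6 libraries was most like that of Nf1, by the root mean square difference of centred log2 values, were Phkg1 at 0.0367, Prpf19 at 0.0439, Glud1 at 0.045, Tubgcp3 at 0.0517 and Gm8834 at 0.0562. In all, 164 of 14436 genes with a mean value of at least 50 lay within 0.1 of Nf1 by this measure.

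SPRED proteins carry neurofibromin to the membrane, and loss of SPRED1 causes Legius syndrome, a condition that resembles mild neurofibromatosis. Spred1 (chromosome 2, 117121374 to 117182279) was at 1411, 1702 and 1468 in the sham mice and at 1809, 1643 and 1467 in the ON-CR mice. The lowest ON-CR mouse matched the middle sham mouse, and the log2 fold change was 0.10 (SE 0.13, limma adjusted p = 0.756). Spred2 (chromosome 11, 19924375 to 20024026) was at 152, 231 and 202 with sham surgery and at 281, 258 and 191 with ON-CR. Mice 4 and 5 were above every sham mouse and mouse 6 was not, for a log2 fold change of 0.32 (SE 0.21, limma adjusted p = 0.521). Within a library Spred1 exceeded Spred2 throughout, with a log2 ratio of 2.98 ± 0.198 with sham surgery and 2.76 ± 0.151 with ON-CR (SD, n = 3 each, two-sided exact permutation p = 0.3).

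The 3 Sprouty genes went in different directions, none past the threshold. Spry2 (chromosome 14, 105891947 to 105896819, minus strand) was at 3139, 3382 and 2612 with sham surgery and at 3098, 2707 and 1980 with ON-CR. Its log2 fold change was -0.25 (SE 0.17, limma adjusted p = 0.532), and the value outside the sham range was that of mouse 6. Without mouse 6 the log2 fold change was -0.064. Spry4 (chromosome 18, 38586247 to 38601415, minus strand) was at 215, 278 and 240 with sham surgery and at 344, 351 and 260 with ON-CR. Mice 4 and 5 were above all sham mice while mouse 6 lay among them. With a log2 fold change of 0.37 (SE 0.18), it had the lowest adjusted p of the 10 genes, 0.347 by limma. The gene most like Spry4 in pattern was Gli3, a transcription factor of the Hedgehog pathway, at a root mean square log2 difference of 0.0374 over 6 libraries, followed by Gm3200, Zfp608, Fam13c and Wwc1 at 0.0623 to 0.0704. Spry1 (chromosome 3, 37639947 to 37644598) was at 83.8, 96.1 and 79.8 with sham surgery and at 171, 84.7 and 129.8 with ON-CR. Mouse 5 lay within the sham range and mice 4 and 6 above it, giving a log2 fold change of 0.51 (SE 0.27, limma adjusted p = 0.403) and an interval, from 0.937-fold to 2.16-fold, that did include a doubling. It was 0.28 without mouse 4 and 0.78 without mouse 5. A transcript model of unknown coding status, Gm42922, shares 710 exon bases with Spry1 on the other strand, and reads of the pair may not be separable.

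Because a ratio within a library is free of the scaling between libraries, paralogs were also set against each other. The log2 ratio of Spry2 to Spry4 was 3.86, 3.60 and 3.44 with sham surgery and 3.17, 2.94 and 2.93 with ON-CR. Every ON-CR mouse lay below every sham mouse, with a difference of -0.62 (two-sided exact permutation p = 0.1, the smallest that 3 mice against 3 allow, 0.25 adjusted over the 5 ratios). The log2 ratio of Spry1 to Spry2 was -5.21, -5.12 and -5.01 with sham surgery and -4.18, -4.98 and -3.92 with ON-CR, again without overlap, although mouse 5 was close to sham mouse 3. The difference was 0.76 (exact permutation p = 0.1, 0.25 adjusted). The balance of Dusp4 to Dusp6 and of Etv4 to Etv5 overlapped between the groups, with exact permutation p-values of 0.3 and 0.9.

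DUSP6 is a cytoplasmic phosphatase specific for ERK, and DUSP4 a nuclear phosphatase of ERK and related kinases. Dusp6 (chromosome 10, 99263231 to 99267489) was at 1008, 927 and 947 with sham surgery and at 1216, 1029 and 1148 with ON-CR. It was the 1 gene of the 10 whose groups did not overlap, against 21.6% of all genes tested. The step from the highest sham to the lowest ON-CR mouse was small, and the log2 fold change of 0.23 (SE 0.12) had an adjusted p of 0.368 by limma. Dusp4 (chromosome 8, 34807297 to 34819894) was at 42.4, 8.85 and 26.3 with sham surgery and at 19.9, 5.24 and 13.5 with ON-CR. These values rest on 5 to 40 estimated reads, and the spread within each group was wider than the difference between them. The log2 fold change was -0.87 (SE 0.65, limma adjusted p = 0.566), with an interval from 0.202-fold to 1.48-fold, which takes in a 2-fold fall as well as no difference.

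The transcription factors Etv4 and Etv5 overlapped between the groups. Etv4 (chromosome 11, 101769742 to 101785371, minus strand) was at 266, 244 and 245 with sham surgery and at 218, 262 and 215 with ON-CR. ON-CR mouse 5 lay among the sham mice, and the log2 fold change was -0.12 (SE 0.16, limma adjusted p = 0.763), which became 0.0034 when libraries were scaled to their totals. Etv5 (chromosome 16, 22381309 to 22439719, minus strand) was at 1291, 1390 and 980 with sham surgery and at 1282, 1043 and 997 with ON-CR, all 3 of them inside the sham range. Its log2 fold change was -0.13 (SE 0.16, limma adjusted p = 0.746).

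Over all 10 genes, 0 passed an adjusted p at or under 0.05 by limma, against 2.1% of all genes, and 0 had an unadjusted p at or under 0.05, against 15.6%. The filter in the study's methods, an unadjusted p at or under 0.05 with at least a 2-fold change, passed 0 of them and 4.66% of all genes. Their median log2 fold change was 0.10, and that of all genes was 0.03. The log2 fold changes moved with single mice, for Nf1 from 0.03 to 0.22, for Spred2 from 0.15 to 0.49 and for Dusp4 from -1.48 to -0.38, though none of the 10 changed sign when a mouse was left out. With each mouse left out in turn, ON-CR mice 5 and 6 included, 0 of the 10 reached an adjusted p at or under 0.05 by limma. The exception to the study's filter was Dusp4, which passed it when sham mouse 2 was left out, at a log2 fold change of -1.48.

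**Figure D2:**
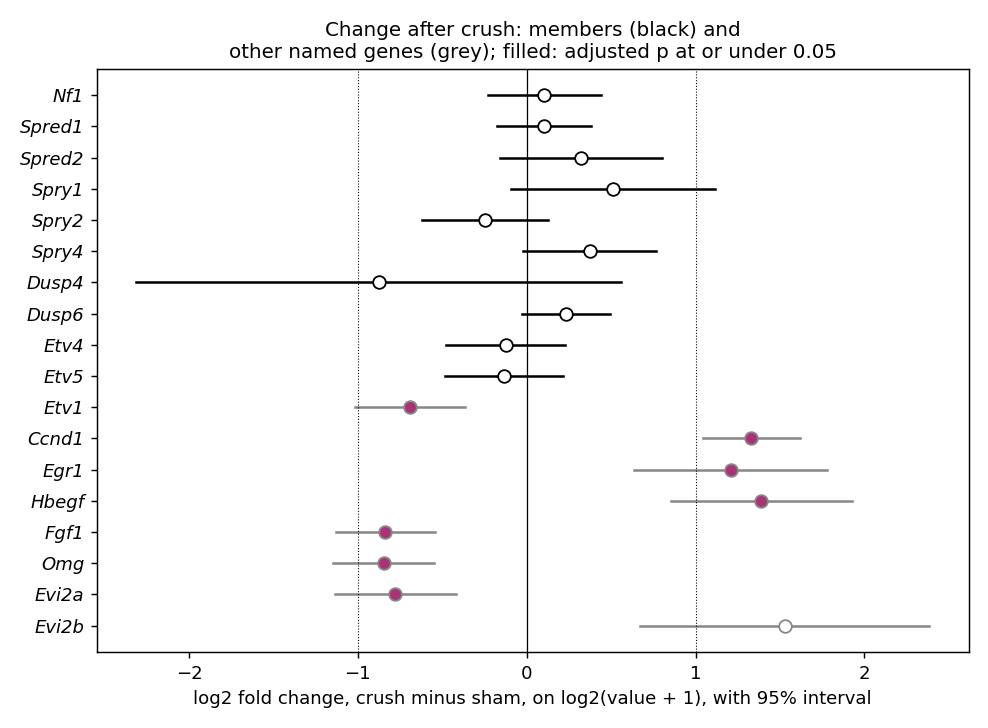
Log2 fold change, crush minus sham, on the log2(value + 1) scale, with 95% intervals from limma, for the 10 genes (black) and 8 other named genes (grey); filled points have an adjusted p at or under 0.05 and dotted lines mark a 2-fold change. All 10 intervals in black cross 0, whereas those of Ccnd1, Egr1, Hbegf, Etv1, Fgf1, Omg and Evi2a do not and are filled.

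The genes inside Nf1 were set beside it, without a test of the difference between them and Nf1. Omg, Evi2a and Evi2b lie in Nf1 introns on the opposite strand and share 0 exon bases with it. Omg (chromosome 11, 79500982 to 79504084), which encodes the oligodendrocyte-myelin glycoprotein, was at 2947, 2724 and 2197 with sham surgery and at 1469, 1323 and 1556 with ON-CR. All ON-CR mice were below all sham mice, and Omg fell by 0.85 on the log2 scale (SE 0.13, limma adjusted p = 0.0118). Evi2a (79526560 to 79530609) fell by 0.78 (SE 0.16, limma adjusted p = 0.039), from 4132, 4497 and 3264 in sham mice to 2489, 1865 and 2597 in ON-CR mice. The fall of the oligodendrocyte markers ran alongside, with a median log2 fold change of -0.90. It passed an adjusted p of 0.05 by limma in 5 of 5 markers, against 1.13% of all genes. Its part in the values of Omg and Evi2a was not tested. Evi2b (79515056 to 79523762), a gene of blood cells, was at 54.7, 32.5 and 27.1 with sham surgery and at 129.7, 63.0 and 149 with ON-CR, a log2 fold change of 1.53 without overlap but with an adjusted p of 0.0783 by limma. Without mouse 5 its adjusted p was 0.0146 by limma. The read-through gene Evi2 shares 442 exon bases with Evi2a and 1831 with Evi2b on the same strand, so how reads were divided between them is uncertain. The adjusted p of Omg by limma ranged from 0.0166 to 0.0899 with each mouse left out and was above 0.05 without sham mouse 1, sham mouse 2 or ON-CR mouse 6. That of Evi2a ranged from 0.0462 to 0.208 and was above 0.05 without any of those 3 mice or ON-CR mouse 4.

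**Figure D3:**
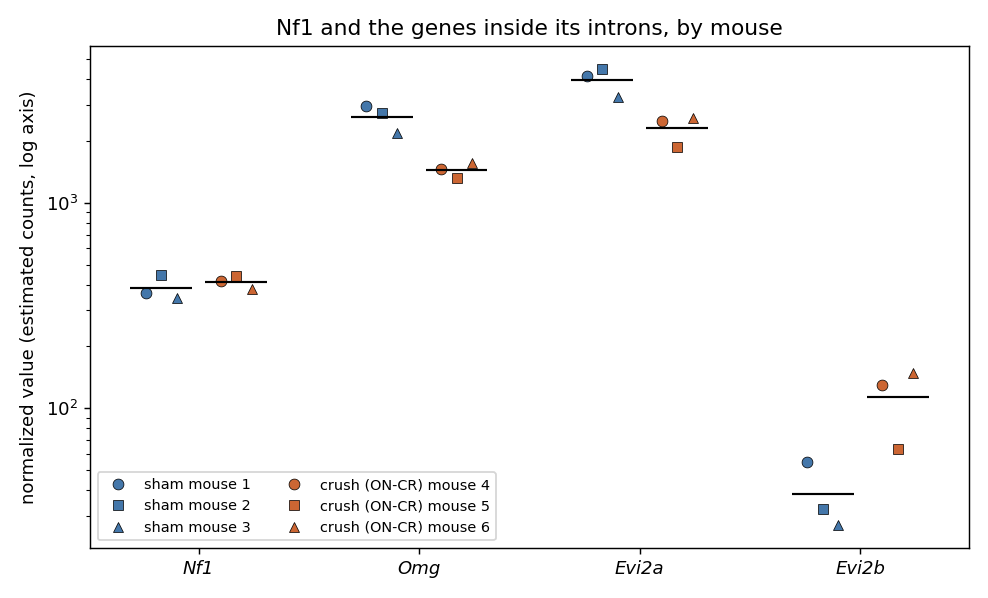
Normalized values (estimated counts, log axis) of Nf1 and of 3 genes inside its introns in each sham (blue) and ON-CR mouse (orange), with bars for group means. Nf1 overlaps between groups, Omg and Evi2a are lower in all 3 ON-CR mice, and Evi2b is higher in all 3.

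The rest of the pathway was described with 8 lists by role, of which 91 of 92 genes were in the table (Spry3 was not). Of the 91, 3 rose, against 0.971% of all genes, and 2 fell, against 1.13% of all genes, at an adjusted p at or under 0.05 by limma. Together they were 5.49% of the 91, and their median log2 fold change was 0.06. Among 14 growth factor ligands, 1 rose and 1 fell, and 7 had an unadjusted p at or under 0.05, against 15.6% of all genes. Hbegf, a ligand of the EGF receptor, was at 532, 654 and 430 with sham surgery and at 1586, 933 and 1825 with ON-CR, a log2 fold change of 1.39 (SE 0.24, limma adjusted p = 0.0193). Fgf1, a fibroblast growth factor without a signal peptide, was at 4476, 4291 and 3556 in sham mice and fell to 2536, 2361 and 2005 in ON-CR mice, by 0.84 on the log2 scale (SE 0.13, limma adjusted p = 0.0118). Neither pair of groups overlapped. Bdnf had a log2 fold change of 1.11 (limma adjusted p = 0.0724) and was higher in all 3 ON-CR mice. With each mouse left out, the limma adjusted p was at or under 0.05 in 2 of 6 fits for Hbegf, those without ON-CR mouse 4 or 5. For Fgf1 it was above 0.05 without sham mouse 1, sham mouse 2 or ON-CR mouse 6.

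From the receptors down to ERK, no gene passed the adjusted threshold in limma. The lists held 13 receptor tyrosine kinases, 15 adaptors and RAS exchange factors, 6 RAS proteins, 9 other RAS GTPase-activating proteins and 13 RAF, MEK and ERK kinases and scaffolds, of which 5, 5, 0, 1 and 1 had an unadjusted p at or under 0.05, against 15.6% of all genes. Met, the receptor of hepatocyte growth factor, had the largest difference among receptors at a log2 fold change of 1.42 (limma adjusted p = 0.0633), and Fgfr2 followed at -0.57 (limma adjusted p = 0.135). Rasgrp1 and Rasgrp2, exchange factors that load RAS-family proteins with GTP, were at 0.61 and -0.58 (limma adjusted p = 0.57 and 0.243). Rasgrp1 was at 153 in ON-CR mouse 5 against 40.4 to 91.3 elsewhere, and its log2 fold change was 0.18 without that mouse. Rras2 and Nras were at 0.45 and -0.29, Rasal1 and Rasa4 at 1.22 and 0.33, and Ksr2 and Rps6ka2 at 0.49 and -0.47, with adjusted p-values from 0.287 to 0.766 by limma. The value of Rasal1 rested on sham mouse 3, without which it was 0.53. Ksr2, a scaffold of neurons, was at 173 in ON-CR mouse 5, the library with the highest neuron markers, against 24.9 to 46.7 elsewhere, and its log2 fold change was -0.36 without that mouse.

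Among 11 other inhibitors of the pathway, 0 passed the adjusted threshold in limma and 3 had an unadjusted p at or under 0.05, against 15.6% of all genes. The filter in the study's methods passed 1 of them, against 4.66% of all genes. The largest log2 fold change of the list was 2.57, for Dusp5, a gene with a mean value under 50. Errfi1, which encodes a feedback inhibitor of the EGF receptor, came nearest to the adjusted threshold. It was at 1209, 1494 and 1751 with sham surgery and at 1065, 666 and 776 with ON-CR, without overlap (log2 fold change -0.84, SE 0.19, limma adjusted p = 0.0549). Its limma adjusted p was 0.0218 without ON-CR mouse 4 and 0.259 at most with another mouse left out. Cbl, a ubiquitin ligase of activated receptors, was higher in all 3 ON-CR mice at a log2 fold change of 0.46 (limma adjusted p = 0.123).

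Of 10 other genes that ERK is known to induce, 2 rose, against 0.971% of all genes, and 1 fell, against 1.13%. Of the 10, 8 were higher by mean log2 value and 7 had an unadjusted p at or under 0.05, against 15.6% of all genes. The median log2 fold change was 0.65. Ccnd1, the cyclin that carries cells from G1 towards S phase, was at 1357, 1588 and 1254 with sham surgery and at 3121, 3843 and 3589 with ON-CR. The groups were far apart, with a log2 fold change of 1.33 (SE 0.13, limma adjusted p = 0.00129) that stayed between 1.25 and 1.43 with each mouse left out, always with an adjusted p at or under 0.05. Egr1, an immediate early transcription factor, was at 144, 110 and 225 with sham surgery and at 406, 290 and 378 with ON-CR, a log2 fold change of 1.21 (SE 0.26, limma adjusted p = 0.0426). Etv1, the remaining gene of the PEA3 group beside Etv4 and Etv5, was at 5508, 5775 and 5325 with sham surgery and at 4171, 2761 and 3494 with ON-CR. All ON-CR mice were below all sham mice, and Etv1 fell by 0.69 (SE 0.15, limma adjusted p = 0.0419). Egr1 and Etv1 each kept an adjusted p at or under 0.05 by limma in 2 of 6 fits with a mouse left out. Egr1 was above it without sham mouse 1 or 2 or ON-CR mouse 4 or 6, up to 0.231, and Etv1 without any one sham mouse or ON-CR mouse 6, up to 0.211, and 0.0615 with library total scaling. The difference in response between Etv1 and its paralogs was not tested.

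**Figure D4:**
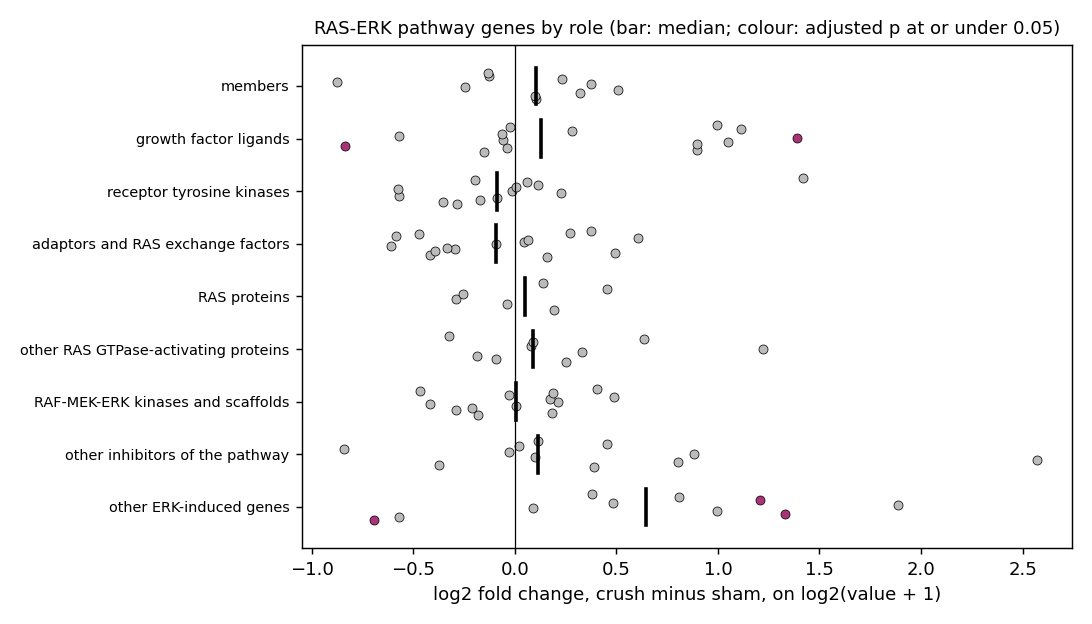
Log2 fold change, crush minus sham, of the 10 genes (top row, members) and of 91 other genes of the RAS-ERK pathway by role; each point is a gene, bars are list medians and coloured points have an adjusted p at or under 0.05 by limma. Coloured points occur among ligands (Hbegf, Fgf1) and other ERK-induced genes (Ccnd1, Egr1, Etv1), and 0 among the 10 members.

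Markers of the glial types of the nerve were set beside the 10 genes. The 6 markers of oligodendrocyte precursors (Pdgfra, Cspg4, C1ql1, Gpr17, Ptprz1 and Olig2) summed to 8021 to 8677 with sham surgery and 8119 to 9137 with ON-CR. Of these, 0 passed an adjusted p at or under 0.05 by limma, against 2.1% of all genes. An unadjusted p at or under 0.05 was met by 2 of the 6. The 6 astrocyte markers summed to 204443 to 252398 with sham surgery and 272785 to 303318 with ON-CR. Of the astrocyte markers, 0 also passed the adjusted threshold, and 4 had an unadjusted p at or under 0.05, which 15.6% of all genes met. Among them Gfap had a log2 fold change of 0.64 and Aldoc of -0.62 (limma adjusted p = 0.0859 and 0.095). The part of these cell types in the values of the 10 genes was not tested.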

How the data were processed

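RNA of whole optic nerves was sequenced by the authors from 3 sham and 3 ON-CR mice, grouped by the sample titles. As the paper's methods and the submitters' processing notes state, reads were aligned and quantified with Illumina DRAGEN on mm10 gene models and median-normalized in Partek Flow 10.0. The table deposited by the authors holds 1 normalized signal a gene and library, in which estimated counts were rescaled by a single factor in every library and are not whole. Depth was estimated from the value of 1 read in each library (0.885 to 1.06), but only 50.8% to 62.8% of values were whole multiples of it within 0.02, so no count model was run. The 95% intervals are limma's confidence intervals for the difference of group means. Their variance comes from the spread between libraries within groups, drawn toward a trend over all genes. Sex was not in the model.

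The test was limma 3.58.1 (R 4.3.3) with a trended prior on log2(value + 1), unfiltered, and p-values were adjusted by Benjamini and Hochberg's method across 25755 genes. The fold changes are on that scale, which understates changes of low genes. The script was tested on simulated data with known changes larger than those estimated for the 10 genes, so that test does not bear on changes of their size. The 10 genes and the lists were chosen with earlier results of these data known. Exon lengths are unions over GENCODE M21 transcripts on GRCm38. Named genes were the 10, the genes inside Nf1, those of the pathway lists past the threshold, the 2 largest differences per list at a mean value of at least 50, and the 5 nearest in pattern to Nf1 and Spry4. Dusp5 was also named, for the largest difference of its list. Alternatives were pseudocounts 0.5 and 2, upper-quartile and library total scaling, a minimum value of 10 in every library, robust empirical Bayes, array quality weights and each mouse left out.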

Additional observations from a re-analysis of the deposited data

How the results depend on the processing

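No paired analysis was possible because the groups share no mouse numbers. In all 13 alternatives, 0 of the 10 genes reached the adjusted threshold of 0.05 in limma. The count passing the study's filter was between 0 and 1 with a mouse left out and 0 otherwise. The number of all genes called was 540, 250 higher and 290 lower, and ranged from 67 without ON-CR mouse 6 to 854 without ON-CR mouse 5. Scaling to library totals moved the median log2 fold change of all genes from 0.03 to 0.15 and gave 421 genes higher and 195 lower. The direction of Etv4 reversed under it, at 0.0034, and the ratio of Etv4 to Etv5 ranged from -0.12 to 0.16 with a mouse left out, changing sign. Ksr2 ranged from -0.36 to 1.01. Of 91 pathway genes, 5 were called, where 540 of all 25755 genes were. Robust empirical Bayes called 9 of the 91 and 710 of all genes. Array quality weights called 10 of the 91 and 791 of all genes. With a mouse left out, 1 to 8 of the 91 were called, and 67 to 854 of all genes. The cause of these shifts was not tested. The minimum value of 10 gave no value for Dusp4. With 3 mice a group and log2 standard errors from 0.12 to 0.65, small changes of the 10 genes were not resolvable.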

Other observations

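A pattern among the 10 genes noticed after their values were seen was the order of 2 ON-CR mice. All 10 were lower in ON-CR mouse 6 than in ON-CR mouse 4. Of the 14436 genes with a mean value of at least 50, among them 9 of the 10 (Dusp4 was below), 51.4% were lower. Spry2 was at 3098 in mouse 4 and 1980 in mouse 6, and Spry4 at 344 and 260. ON-CR mouse 6 was also the library with the most immunoglobulin RNA, with a sum of B and plasma cell markers of 97531 against 1391 in mouse 4. Airway epithelium markers summed to 6205 in mouse 6 and 120 in mouse 4. Xist was at 6131 in mouse 6 and 2708 in mouse 4, and Ddx3y at 0 and 976. Whether these differences belong together was not tested.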
